A study of Mus musculus with 6 samples.

Results

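The genes of the proteasome and of its assembly were followed in whole testes of day 10 mice lacking Eif5 in germ cells. Members were chosen by symbol alone, as genes named Psma, Psmb, Psmc, Psmd, Psme, Psmf or Psmg with a number, without pseudogene symbols and without the immunoproteasome genes Psmb8, Psmb9 and Psmb10. Of 22219 genes in the deposited table, 46 met this rule, and all 46 passed the filter on low values. One of them, Psmc3ip, shares a symbol stem but encodes HOP2, a partner of the meiotic recombinases and no proteasome subunit. Psmb11, the beta subunit of the thymus, was not analysed here.

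The cKO testes came from mice with floxed Eif5 (Eif5 fl/fl) crossed to Stra8-Cre, a Cre driver active in male germ cells from the spermatogonial stage, so somatic cells of the testis keep Eif5. Control testes were taken at the same age; the labels do not state their genotype, and Cre or floxed alleles without recombination therefore cannot be told apart from loss of Eif5. Each group had 3 libraries. No label ties them to separate animals, and the spread behind each p-value may be technical.

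The proteasome breaks down proteins tagged with ubiquitin. Its core particle is a barrel of alpha rings around beta rings, and the beta rings carry the proteolytic sites. A regulatory cap of ATPase and non-ATPase subunits binds ubiquitin, unfolds the substrate and feeds it into the barrel, while dedicated chaperones build both parts. Male germ cells carry a variant of the core in which the alpha subunit Psma8 takes the place of Psma7, and this variant is known for its part in meiosis. The transcription factor NFE2L1 is known to raise proteasome genes together when the proteasome is inhibited, through antioxidant response elements in their promoters.

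Promoters of 38 members were matched in the RefSeq table (GRCm38.p6), each covering 250 bases before and 50 after the gene start. Among the 37 of these that belong to proteasome genes, 6 (16.2%) held the core of the antioxidant response element, TGACNNNGC, on either strand, and 14.0% of the 27025 genes with a promoter did so. The core of the element bound by C/EBP and ATF factors, TGATGNAA on either strand, was in 1 member promoter (2.70%), that of Psmd13, and in 4.51% of all genes. Both motifs start with TGA, the same bases cannot match both from the same start, and no member promoter held both. A match describes letters only. The promoters of Psmb5, which holds a match, of Psmd2, the called subunit of the cap, and of Psma7, the ubiquitous partner of Psma8, are shown 5′ to 3′ with the antioxidant response element core in capitals; the windows lie at chr14:54617946-54618245 (minus strand), chr16:20651402-20651701 (plus strand) and chr2:180042415-180042714 (minus strand).
Psmb5: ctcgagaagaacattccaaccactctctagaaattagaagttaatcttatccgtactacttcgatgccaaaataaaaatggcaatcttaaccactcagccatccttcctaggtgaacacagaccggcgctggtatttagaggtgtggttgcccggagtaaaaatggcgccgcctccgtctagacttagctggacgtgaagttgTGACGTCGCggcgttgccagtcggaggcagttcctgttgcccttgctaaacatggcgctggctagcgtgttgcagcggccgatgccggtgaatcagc
Psmd2: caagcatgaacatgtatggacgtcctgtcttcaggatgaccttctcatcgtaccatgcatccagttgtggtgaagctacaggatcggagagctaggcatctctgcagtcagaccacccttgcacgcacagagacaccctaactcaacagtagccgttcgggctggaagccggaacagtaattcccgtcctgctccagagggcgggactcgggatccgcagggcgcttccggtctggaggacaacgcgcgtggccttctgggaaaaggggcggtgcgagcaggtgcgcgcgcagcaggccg
Psma7: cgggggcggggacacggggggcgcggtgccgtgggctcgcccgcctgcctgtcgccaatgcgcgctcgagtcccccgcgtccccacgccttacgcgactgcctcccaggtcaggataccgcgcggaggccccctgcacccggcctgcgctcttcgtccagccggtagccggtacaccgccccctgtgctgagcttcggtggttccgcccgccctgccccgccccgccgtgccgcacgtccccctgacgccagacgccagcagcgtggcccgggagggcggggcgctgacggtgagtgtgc
In Psmb5 the match began at base -47 relative to the gene start, and in the windows of Psmd2 and Psma7 neither motif was found. The members with the antioxidant response element core were Psmb5, Psmb6, Psmc6, Psmd9, Psmd12 and Psme4, and none of them was called in the comparison of cKO with control.

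Recovered reads ran from 32555443 to 48015318 in cKO libraries and from 33631996 to 48409550 in control libraries. Eif5, the deleted gene, had 8548, 8982 and 9574 normalised read counts in the cKO libraries, against 11964, 10551 and 11187 in the controls (log2 fold change -0.31, SE 0.0947, limma adjusted p = 0.024). Leaving out cKO replicate 1 or 2 lost this call (limma adjusted p = 0.13 and 0.0875). All 5 general germ cell, 12 Sertoli cell and 7 Leydig cell markers were above 0 in every library. The 15 meiotic prophase markers summed to between 10522 and 11986 normalised read counts in cKO and between 25113 and 28543 in control testes, and all 15 were lower. Markers of general germ cells were lower in 5 of 5 and those of differentiating spermatogonia in 6 of 8. Of 8 markers of undifferentiated spermatogonia 3 were called higher by limma and 0 lower. Within that last list Zbtb16 and Sall4 had negative log2 fold changes (-0.30 and -0.29), not called by limma (adjusted p = 0.0575 and 0.066). edgeR and DESeq2 called Zbtb16 lower (adjusted p = 0.0472 and 0.0382). Among somatic lists, 6 of 7 Leydig and 6 of 8 macrophage markers were higher and 0 lower. Of 6 endothelial markers 1 was higher and 1 lower, and of 5 erythroid markers 2 were higher and 0 lower. The erythroid markers summed to between 4337 and 10999 normalised read counts in cKO and between 3343 and 4210 in control testes. All marker counts here are limma calls, and limma called 20% of all genes tested. Of 12 Sertoli markers 5 were higher and 1, Rhox5, was lower (log2 fold change -0.51), and of 6 peritubular myoid markers 2 were lower and 0 higher. Their part in the results that follow was not tested. In a whole testis, fewer cells of a type and less RNA per cell cannot be told apart.

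The proteasome genes stayed close to their control level as a group. Of the 46 members 3 were lower in cKO, 0 were higher and 43 were not called by limma at a Benjamini-Hochberg adjusted p under 0.05. The call took in 6.52% of the members, where 20% of all 17570 genes tested were called (9.63% higher and 10.4% lower). At an unadjusted p under 0.05, 7 members were lower and 1 was higher. edgeR on the recovered reads called the same 3 members lower and 0 higher, with 19.5% of all genes called (8.96% higher and 10.6% lower). DESeq2 called 5 members lower and 1 higher, with 22.2% of all genes called (10.7% higher and 11.5% lower). The median log2 fold change of the members was -0.04, against 0.01 over all genes tested. The members lay nearer to 0: 40 of 46 had an absolute log2 fold change under 0.25 (87.0%), as did 53.6% of all genes. The genes tested were not matched to the members for level, and the part of level in this gap was not tested. In 9 members (19.6%) the 3 cKO and 3 control values did not overlap, 7 with cKO lower and 2 with cKO higher, against 36.7% of all genes tested. The members together took 0.408%, 0.425% and 0.389% of all normalised reads in the cKO libraries, against 0.486%, 0.473% and 0.413% in the controls, and these shares overlapped.

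These counts depend on the scaling. Scaled to the Sertoli cell markers, the median of all genes moved to -0.33 and that of the members to -0.38. Under that scaling 38 members were called lower and 0 higher, where 39.4% of all genes were called (0.524% higher and 38.8% lower). With library totals 5 members were lower and 0 higher, where 18.8% of all genes were called (4.59% higher and 14.2% lower). The distance between the median of the members and that of all genes was -0.04 with the deposited scaling and -0.05 under the Sertoli scaling.

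**Figure D1:**
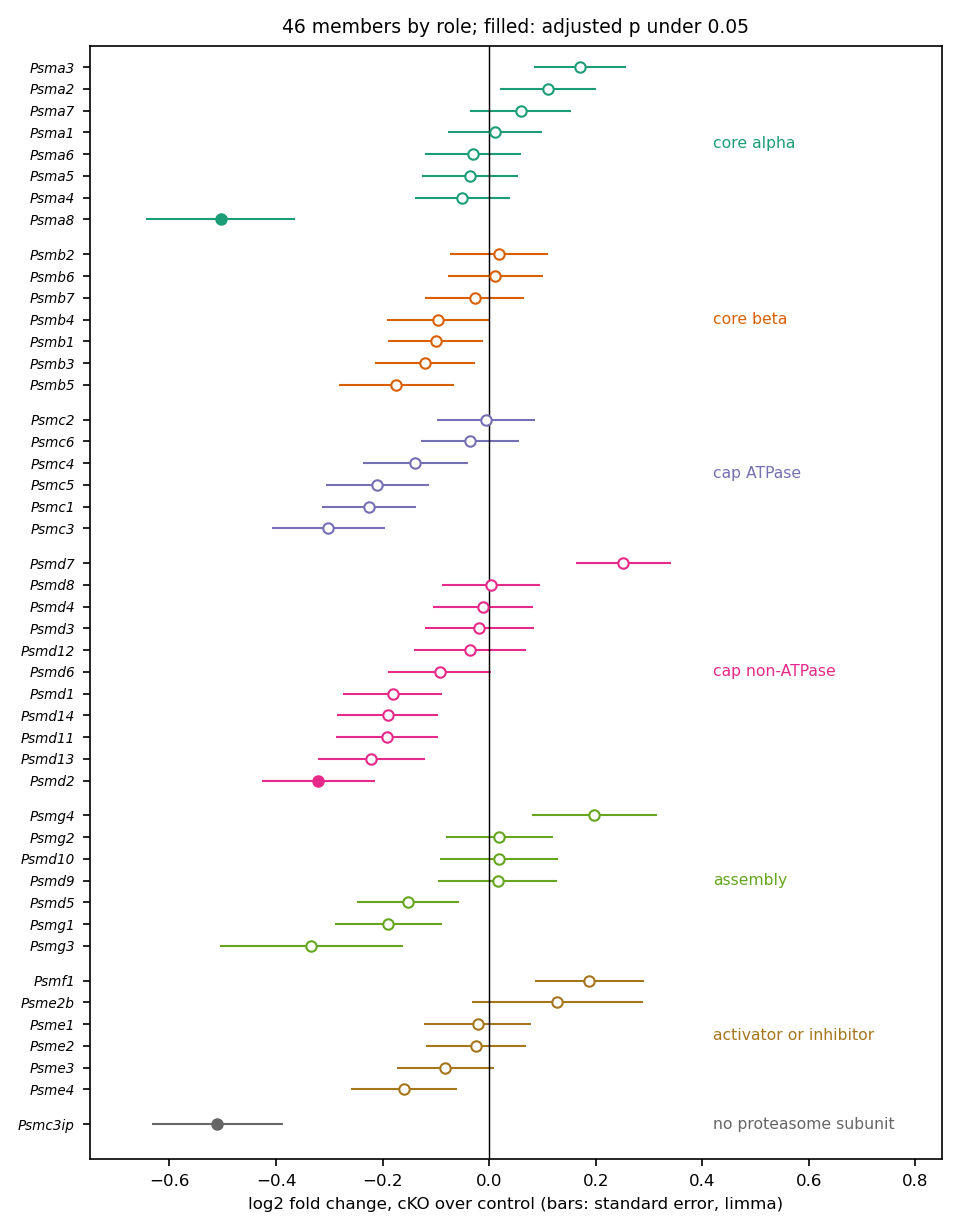
Log2 fold change of cKO over control for the 46 members, grouped by role, with standard errors from limma (3 libraries per group). Filled points mark the members with an adjusted p under 0.05, which were Psma8, Psmd2 and Psmc3ip; open points stand for the other 43, and all 6 cap ATPases lie below 0.

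Psma8, the alpha subunit of germ cells, had the largest fall among true subunits. It read 323, 328 and 355 normalised read counts in the cKO libraries, against 544, 475 and 418 in the control libraries. Every cKO library lay below every control library, and control replicate 1 was the highest of the 6. The means were 335 ± 17.2 in cKO and 479 ± 63.5 in control (SD, n = 3 each), a log2 fold change of -0.50 (SE 0.14, limma adjusted p = 0.0148). The call was lost when cKO replicate 1 (limma adjusted p = 0.0553), cKO replicate 2 (0.0503) or control replicate 1 (0.0685) was left out, with a log2 fold change between -0.60 and -0.41 over the 6 libraries left out in turn. The 15 meiotic markers given above were lower in the same libraries, with log2 fold changes between -2.42 for Meiob and -0.72 for Syce2. Each was further from 0 than that of Psma8, a difference that was not tested.

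Psma7, the alpha subunit that Psma8 replaces, was not called. It read 7386, 7307 and 7209 normalised read counts in cKO, against 6343, 7752 and 6995 in control testes. The control values spread on both sides of the cKO values (log2 fold change 0.06, SE 0.0947, limma adjusted p = 0.709). The sign turned to -0.03 with library totals, -0.29 under the Sertoli scaling (adjusted p = 0.0363) and -0.01 without control replicate 1.

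The ratio of the pair was lower in every cKO library than in every control library. By construction, scaling of the libraries does not change it beyond the pseudocount. The log2 ratio of Psma8 to Psma7 was -4.51, -4.47 and -4.34 in cKO, against -3.54, -4.02 and -4.06 in control libraries. Control replicate 1 stood furthest from the rest. The mean difference was -0.56 (SE 0.176), and the 2-sided exact permutation test gave p = 0.1, the smallest that 3 against 3 samples allow. Without control replicate 1 the difference was -0.39. Per kilobase of transcript, Psma8 stood at 198 ± 10.1 normalised reads in cKO and 283 ± 37.5 in control, and Psma7 at 7987 ± 96.7 in cKO and 7691 ± 771 in control (SD, n = 3 each). On that scale Psma8 made up 2.31%, 2.37% and 2.59% of the pair in cKO, against 4.43%, 3.20% and 3.12% in control testes. Psma8 was a minor part of the pair in whole testes at this age in both groups. The share within germ cells was not measured. For this ratio too, a smaller share of germ cells and less Psma8 per germ cell cannot be told apart. No stretch of 50 bases was shared between protein-coding transcripts of either gene and annotated transcripts of any other gene in GENCODE M21.

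**Figure D2:**
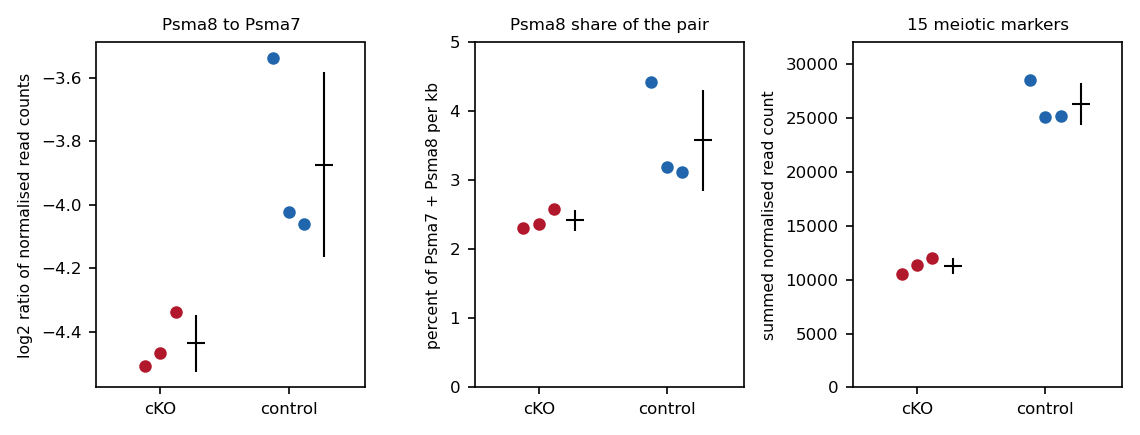
Per library, the log2 ratio of Psma8 to Psma7, the Psma8 share of the pair per kilobase in percent, and the summed normalised read count of 15 meiotic prophase markers, with mean and SD (n = 3). In each panel the 3 cKO libraries sit below the 3 control libraries, and control replicate 1 is the highest.

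By limma with the deposited scaling, the other 14 subunits of the constitutive core gave 0 calls, where 20% of all genes tested were called. Their log2 fold changes ran from -0.17 for Psmb5 to 0.17 for Psma3, with a median of -0.03. Negative values were found in 8 of the 14, beside 49.2% of all genes tested. This number depended on the scaling. With library totals it was 12, beside 59.4% of all genes, and under the Sertoli scaling 14, beside 85.5%. Psma3, a subunit of the alpha ring, was the only core subunit besides Psma8 whose groups did not overlap, with 5204, 5325 and 5174 normalised read counts in cKO, against 4779, 4540 and 4632 in control (limma adjusted p = 0.175). All 3 cKO values were above the control values, by less than the test could call. Groups that did not overlap were found in 36.7% of all genes tested. Of the 50-base stretches of Psma3, 22.0% also occur in other annotated genes, so part of its reads may be shared.

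The 3 catalytic subunits gave no call with the deposited scaling. Under the Sertoli scaling limma called all 3 lower, as it did 38.8% of all genes. There the log2 fold change was -0.52 for Psmb5 (limma adjusted p = 0.00328), -0.33 for Psmb6 (0.0197) and -0.37 for Psmb7 (0.015). Psmb5, the chymotrypsin-like subunit, read 1999, 2087 and 1959 normalised read counts in cKO and 2264, 2673 and 1941 in control libraries (log2 fold change -0.17, SE 0.108, limma adjusted p = 0.274). Control replicate 3 lay below the cKO values, and control replicate 2 well above them. Psmb6, the caspase-like subunit, averaged 5356 ± 185 in cKO and 5316 ± 260 in control (SD, n = 3 each), a log2 fold change of 0.01. Its sign turned to -0.07 with library totals, -0.33 under the Sertoli scaling, and -0.01 and -0.02 without cKO replicate 2 or control replicate 3. Psmb7, the trypsin-like subunit, averaged 5165 ± 267 in cKO and 5269 ± 418 in control (SD, n = 3 each), a log2 fold change of -0.03 that read 0.02 without cKO replicate 3 and 0.04 without control replicate 1. Between 54.1% and 69.3% of the 50-base stretches of Psma5, Psmb3, Psmb5, Psme2 and Psme2b also occur in other annotated genes, pseudogenes among them, so the values of these 5 members are uncertain where reads were shared.

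Subunits of the cap leaned lower. Of 17 cap subunits 15 had a negative log2 fold change, as did 49.2% of all genes tested, and the median was -0.14. The number with a negative value was 12 without cKO replicate 3 or control replicate 1. It also depended on the scaling. With library totals it was 16, beside 59.4% of all genes, and under the Sertoli scaling 17, beside 85.5%. Of the 17, 1 was called, where 20% of all genes tested were called. The called gene was Psmd2, the large cap subunit on which shuttle factors and the deubiquitinase Usp14 dock. Psmd2 read 12152, 11810 and 9856 normalised read counts in cKO, against 15148, 14445 and 12585 in control libraries. The highest cKO value came close to the lowest control value without reaching it (log2 fold change -0.32, SE 0.107, limma adjusted p = 0.0385). Leaving out any 1 of 5 libraries lost the call, with adjusted p = 0.0559, 0.0676 and 0.247 without cKO replicate 1, 2 or 3 and 0.0763 and 0.0889 without control replicate 1 or 2. Of the 50-base stretches of Psmd2, 25.6% also occur in the annotated genes Gm5422 and Gm7642, so part of its reads may be shared.

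**Figure D3:**
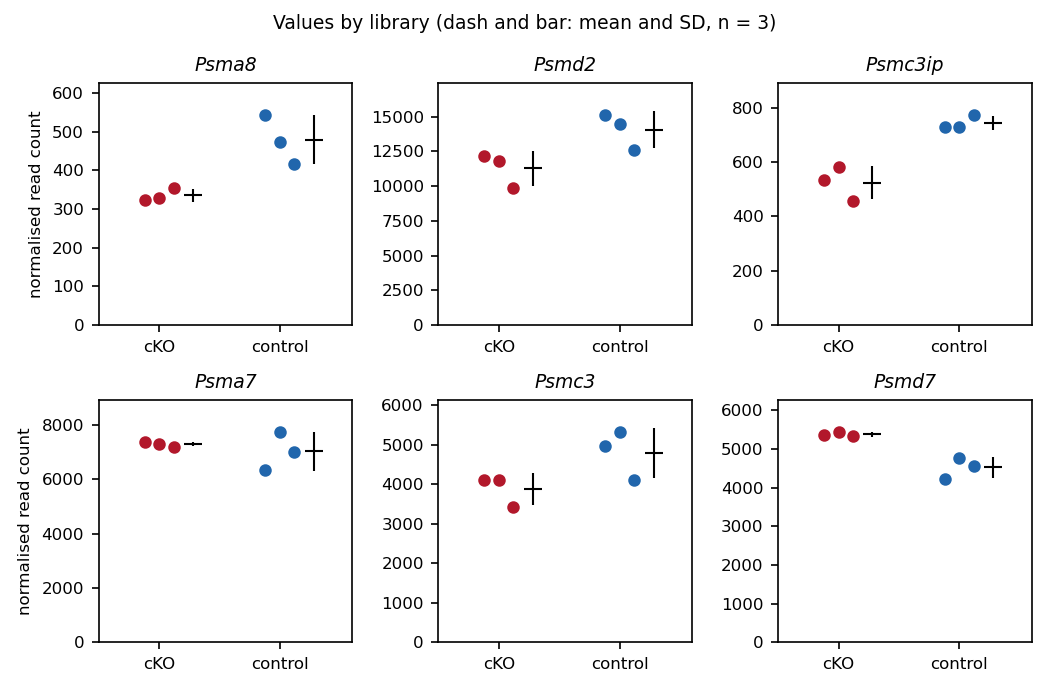
Normalised read counts by library, cKO left of control, for the 3 called members (Psma8, Psmd2, Psmc3ip), for Psma7 and for the members just outside the threshold (Psmc3, Psmd7), each from 0, with mean and SD (n = 3). The groups overlap for Psma7 and Psmc3 and stand apart in the other 4 panels.

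Just outside the threshold stood a cap ATPase that was lower and a cap subunit that was higher, both singled out after their values were seen. Psmc3, an ATPase of the ring that unfolds substrates, read 4111, 4113 and 3424 normalised read counts in cKO, against 4965, 5329 and 4098 in control libraries (log2 fold change -0.30, SE 0.107, limma adjusted p = 0.0505). Control replicate 3 fell within the cKO range. Psmd7, the partner of the deubiquitinase Psmd14, read 5347, 5439 and 5334 in cKO, against 4229, 4771 and 4555 in control (log2 fold change 0.25, SE 0.0891, limma adjusted p = 0.0507). Its cKO values were tight and all above the controls, and its log2 fold change was the highest of the 46 members; under the Sertoli scaling it read -0.09. DESeq2 called both genes (adjusted p = 0.0366 and 0.0244), and edgeR called neither (adjusted p = 0.0547 and 0.0682). With the deposited scaling the partners Psmd7 and Psmd14 had opposite signs. Under the Sertoli scaling all 17 cap subunits, these partners among them, were negative. Psmd14, which removes ubiquitin from the substrate, read 1788, 1901 and 1871 in cKO, against 2287, 2037 and 2029 in control (deposited scaling, log2 fold change -0.19, limma adjusted p = 0.164).

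All 6 ATPases had a negative log2 fold change, from -0.30 for Psmc3 to -0.01 for Psmc2, and 0 were called. Over all genes tested, 49.2% had a negative value and 20% were called. Psmc1, the ATPase with the highest level per kilobase, read 4466, 4390 and 4367 normalised read counts in cKO, against 5467, 4985 and 5028 in control libraries. Its groups did not overlap (log2 fold change -0.23, SE 0.0883, limma adjusted p = 0.0748), and DESeq2 called it (adjusted p = 0.0347). Of the 50-base stretches of Psmc1, 17.6% also occur in other annotated genes, so part of its reads may be shared. Among the non-ATPase subunits, Psmd13 (-0.22), Psmd11 (-0.19), Psmd1 (-0.18) and the ubiquitin receptor Psmd4 (-0.01) were not called, with the values given as log2 fold changes.

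The lean of the cap rested in part on which control libraries were read. As the median deviation from the mean of the 6 libraries on the log2 scale, the cap stood at -0.06, -0.03 and -0.13 in cKO, against 0.19, 0.10 and -0.06 in control libraries. Control replicate 3 lay among the cKO libraries. The core stood at 0.02, 0.02 and -0.05 in cKO and at 0.02, 0.03 and -0.04 in control. The median of the cap minus that of the core was -0.11 with the deposited values, between -0.17 and -0.09 when each library was left out in turn; a scaling of the libraries shifts both medians alike. This difference between roles was not tested.

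**Figure D4:**
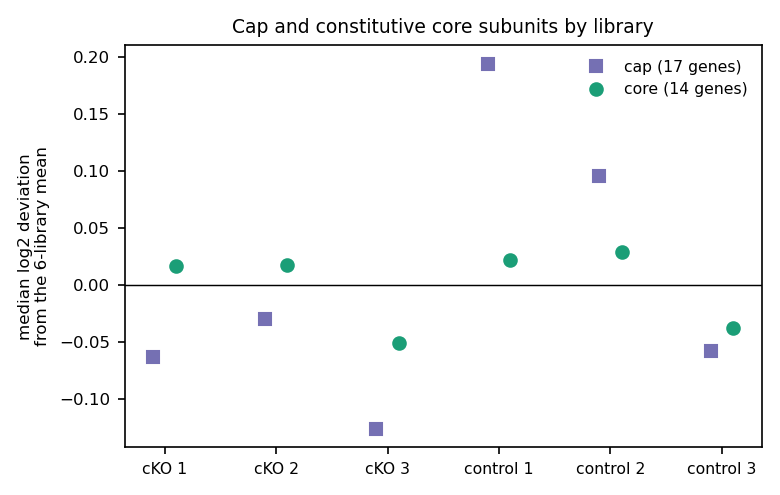
Median log2 deviation from the 6-library mean of 17 cap subunits (squares) and 14 constitutive core subunits (circles) in each library. Core medians run from -0.05 to 0.03, while cap medians run from -0.13 in cKO replicate 3 to 0.19 in control replicate 1, with control replicate 3 among the cKO libraries.

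Assembly chaperones gave 0 calls in 7 members, where 20% of all genes tested were called, with a median log2 fold change of 0.02. Psmg3, a chaperone of the alpha ring, read 243, 214 and 207 normalised read counts in cKO, against 230, 272 and 346 in control (log2 fold change -0.33, SE 0.172, limma adjusted p = 0.183). Its partner Psmg4, the chaperone with the highest level per kilobase, read 1041, 884 and 906 in cKO, against 738, 807 and 928 in control (0.20, SE 0.117, limma adjusted p = 0.251), and -0.15 under the Sertoli scaling. Both pairs of groups overlapped. Of the 50-base stretches of Psmg3, 21.8% also occur in another annotated gene, so part of its reads may be shared. The groups did not overlap for Psmg1 (-0.19) and for Psmd5, a chaperone of the cap base (-0.15), both lower in cKO and not called. Over all genes tested, 36.7% had groups that did not overlap. Psmd9, Psmd10 and Psmg2 each had a log2 fold change of 0.02.

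Activators and the inhibitor Psmf1 gave 0 calls in 6 members, where 20% of all genes tested were called. Psme4, the activator known for histone breakdown in later male germ cells, read 2931, 3138 and 2952 normalised read counts in cKO, against 3878, 3065 and 3182 in control libraries (log2 fold change -0.16, SE 0.0994, limma adjusted p = 0.278). Control replicate 1 alone stood well above the rest. Psme3, the nuclear activator, had -0.08, the interferon-responsive Psme1 and Psme2 had -0.02 each, and Psmf1 had 0.19 as log2 fold changes. Psme2 led this role per kilobase, and its sign turned to 0.05 without control replicate 2. The excluded immunoproteasome genes were also not called: Psmb8 read 92.3, 67.5 and 78.8 in cKO and 39.9, 76.2 and 53.4 in control, and the log2 fold changes of Psmb9 and Psmb10 were 0.44 and 0.14.

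Psmc3ip, the HOP2 gene that met the symbol rule without being a subunit, was called lower. It read 533, 580 and 458 normalised read counts in cKO, against 729, 728 and 774 in control libraries. The groups were well apart (log2 fold change -0.51, SE 0.123, limma adjusted p = 0.00605), and the call held in all 15 other settings tried, with adjusted p up to 0.0438. Without Psmc3ip, 2 of 45 members were called.

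**Figure D5:**
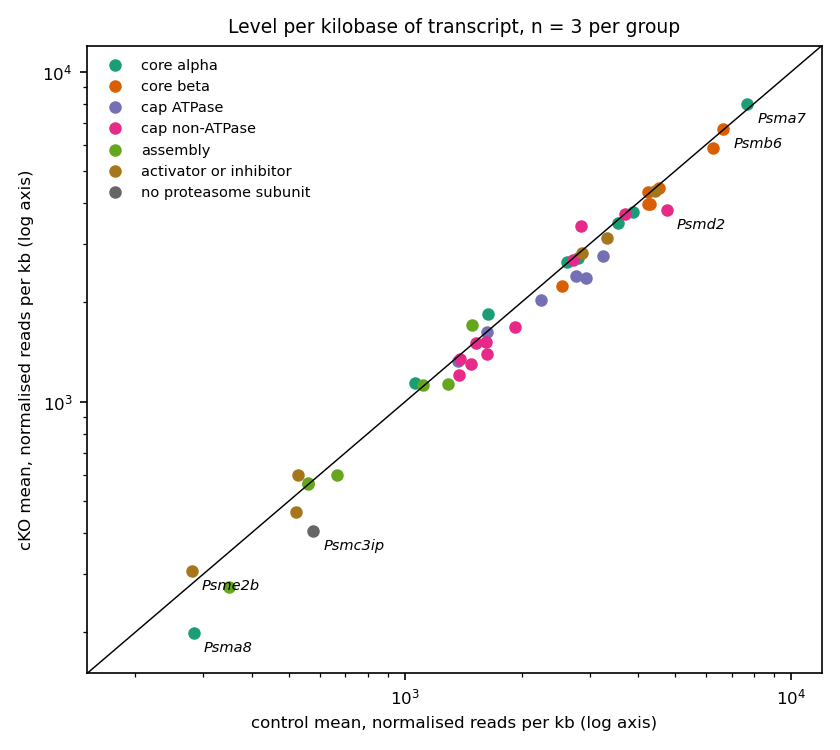
Mean level per kilobase of transcript for the 46 members, cKO on the vertical and control on the horizontal axis, both logarithmic, with the line of equality. Most points lie near the line; Psma7 is the highest at 7987 in cKO and 7691 in control, and Psma8, Psmc3ip and Psmg3 lie below the line at the low end.

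Levels per kilobase spanned a wide range. In control testes the 7 beta subunits ranged 2.61-fold, from 2550 for Psmb5 to 6662 for Psmb6 in normalised reads per kilobase, and the 6 ATPases ranged 2.37-fold. Psma7 at 7691 and Psmb6 at 6662 led all members there. Assembly chaperones ran from 350 for Psmg3 to 1485 for Psmg4, all below the lowest beta subunit. Other roles overlapped the chaperones, with Psma2 at 1057, Psmc6 at 1367, Psmd14 at 1374 and Psme2b at 280.

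Other genes of the pathway came from lists chosen with earlier results of these data known, and their calls stand beside the 20% of all genes tested that were called. Of 10 subunits and cofactors bound to the proteasome 1 was lower and 0 higher. That was Uchl5, a deubiquitinase held by the cap subunit Adrm1, with 917, 936 and 968 normalised read counts in cKO, against 1369, 1262 and 1394 in control (log2 fold change -0.51, SE 0.101, limma adjusted p = 0.00141). Adrm1 itself (0.15) and the core maturation factor Pomp (-0.05) were not called. Of 5 ubiquitin shuttle genes 1 was higher, Ubqln2, with 5500, 5771 and 5484 in cKO, against 4423, 3730 and 4419 in control (log2 fold change 0.42, SE 0.0939, limma adjusted p = 0.00387); it read 0.07 under the Sertoli scaling and was not called there (adjusted p = 0.655).

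Uba6, an alternative activating enzyme for ubiquitin, was lower. It read 2614, 2661 and 2747 normalised read counts in cKO, against 4486, 3088 and 3474 in control (log2 fold change -0.44, SE 0.112, limma adjusted p = 0.00817). The groups did not overlap, and control replicate 1 was the highest of the 6 libraries. Of the 5 genes of transcriptional control and nuclear import 0 were called, among them Nfe2l1, which encodes the proteasome regulator, with 19480, 18412 and 19351 in cKO, against 16295, 19984 and 18505 in control (log2 fold change 0.07, SE 0.104, limma adjusted p = 0.696). Its control values fell on both sides of the cKO values.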

How the data were processed

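RNA from whole testes was sequenced in 6 libraries, grouped and numbered by their titles. The authors deposited 1 table with 1 column per library. Although called raw counts, the deposited values are a scaled signal: 100% were whole multiples of 1 step per library, within a tolerance of 1e-06, and each step was the inverse of the median-of-ratios size factor (0.825 to 1.35). They are called normalised read counts. Among recovered counts of 1 to 20, 78.1% were even. The submitters' processing notes list StringTie 1.3.1 and RSEM, with no role stated. Aligner, build, annotation and strandedness: not given in the sources used here.

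limma 3.58.1 (R 4.3.3) with an intensity-dependent prior was fitted on log2(value + 2), 2-sided, with no covariate, over the 17570 genes that passed edgeR's filterByExpr (minimum count 10), with Benjamini-Hochberg adjustment over all of them. Fold changes on this scale understate the change of low genes. edgeR 4.0.16 (quasi-likelihood) and DESeq2 1.42.0 were run on the recovered reads. The limma and edgeR fits were tested on simulated counts, with changes larger than that of any member under the deposited scaling. Recovery of changes as small as those of the members was not tested, nor was the pair ratio. Transcript length was the median of the APPRIS principal transcripts in GENCODE M21, used for names and lengths only. The Sertoli scaling used the median log ratio of 12 markers. No 2 libraries were duplicates (chi-square per degree of freedom at least 10.2).

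The members and lists were chosen with earlier results of these data known. Named by rule were Psma8, Psma7, the catalytic subunits, every called member, the member with the highest level per kilobase in each role and the called pathway genes, of which 1 is not reported here. Psme3ip1, which is no subunit either, is listed under another symbol and was not counted.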

Additional observations from a re-analysis of the deposited data

How the results depend on the processing

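Calls near the threshold depended on single libraries and on the scaling. The number of members called higher was 0, with 1 (Psmd7) at a pseudocount of 8 and by DESeq2, and 0 to 1 over the libraries left out in turn. The number called lower was 3, with 5 by library totals, 5 by DESeq2, 38 under the Sertoli scaling and 1 to 6 over the libraries left out: 1 without cKO replicate 1 or 2 or control replicate 1, and 6 without control replicate 3. All genes called numbered 3521, or 6915 under the Sertoli scaling and 2216 to 3556 over the libraries left out, the fewest without cKO replicate 3 (2216) and cKO replicate 1 (2254). The calls were lower for 51.9% of called genes with the deposited factors, 75.6% with library totals and 98.7% under the Sertoli scaling. The median of the members was -0.04, -0.12 with library totals and -0.38 under the Sertoli scaling. The log2 fold change of Psma8 was -0.85 under the Sertoli scaling and ran from -0.60 to -0.41 over the libraries left out. For Psma7 the range over libraries left out was -0.013 to 0.13, with -0.027 by library totals and -0.29 under the Sertoli scaling. Other signs that turned were those of Psmb6 (-0.075 with library totals, -0.33 under the Sertoli scaling, -0.022 to 0.048 over libraries left out), Psmb7 (-0.062 to 0.038 over libraries left out), Psme2 (-0.069 to 0.053), Psmg4 (-0.15 under the Sertoli scaling) and Psmd7 (-0.094 under it). The cause was not tested. The difference in the log2 ratio of Psma8 to Psma7 ran from -0.66 to -0.39 over the libraries left out.

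The labels do not state whether replicate numbers pair the samples. Same-numbered libraries correlated at -0.038, -0.0023 and 0.055 in their deviations from the group means. Not every library correlated best with its own number, though cKO replicate 3 did. With 3 libraries per group, these correlations cannot exclude a pairing. With the replicate block 4 members were lower, Psmc3 being added (adjusted p = 0.0314), and 3306 genes were called in all. The lowest value of any member in any library was 207 normalised read counts (Psmg3).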
